A study of Mus musculus with 9 samples.

Results

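Heat shock chaperone transcripts were compared between testis macrophages, epididymis macrophages and brain microglia, each sorted from C57BL/6J mice. The 10 genes were taken by symbol from the deposited expression table of 15434 genes: Hspa1a, Hspa1b, Hspa8, Hspa5, Hsp90aa1, Hsp90ab1, Dnaja1, Dnajb1, Hsph1 and Hspe1. Each organ has 3 RNA sequencing libraries, 9 in all, from untreated and uncultured cells. The brain libraries are titled as microglia, the resident macrophages of the brain. Per the labels' protocols, all 3 organs were minced and digested with collagenase II and DNase I for 40 minutes at 37 °C. Live cells positive for CD45, CD11b and F4/80 and negative for Ly6C and CD11c were then sorted. The labels give mouse number 1 to all testis libraries, 2 to all epididymis libraries and 3 to all brain libraries, and give no age. Organ and mouse number therefore cannot be told apart, nothing says that the libraries of an organ came from separate animals, and p-values measure library-to-library spread alone, which may be technical. Per the same protocols, testis and epididymis suspensions were pooled at 1 step, in wording that does not say whether the organs were kept apart.

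Values are normalised read counts, the reads of a gene divided by a factor per library. Libraries held 2727092 to 4458688 reads assigned to genes. The 10 listed macrophage genes took 48.7 to 53.0 of every 10000 reads in testis libraries, 95.7 to 102 in epididymis libraries and 154 to 161 in brain libraries. Genes of this list did not all go the same way. Mean values of Cx3cr1 (2271 in testis, 15456 in brain), Csf1r, Mertk, Itgam and Fcgr1 were lower in testis than in brain. Those of Lyz2 (3327 in testis, 284 in brain), Ptprc, Adgre1, Cd68 and C1qa were higher in testis. The 9 microglia genes in the table took 1.79 to 3.05 in testis, 11.6 to 15.5 in epididymis and 52.0 to 57.9 in brain. In bulk samples such as these, a share of other cells and an amount of RNA per cell cannot be told apart.

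Molecular chaperones bind unfolded or newly made proteins and let them fold. HSP70 proteins do so in cycles of ATP binding and hydrolysis, which J-domain proteins start and nucleotide exchange factors reset, and HSP90 takes over many clients afterwards. The heat shock factor HSF1 raises transcription of the inducible members within minutes of heat or other protein stress, and these transcripts are also known to be induced when tissue is digested into single cells.

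Hspa1a and Hspa1b encode the inducible cytosolic HSP70 and are neighbours on the minus strand of chromosome 17. On GRCm38 (GENCODE M21), Hspa1a spans 34969190 to 34972156 and Hspa1b spans 34956436 to 34959238, each as 1 exon. Their 250 bases before the transcript start are shown because they let a reader see how alike the promoters of the pair are. Capitals mark the bases that differ, and the sequences are RefSeq's on GRCm38.p6, at chr17:34972157-34972406 and chr17:34959239-34959488, minus strand.
Hspa1a: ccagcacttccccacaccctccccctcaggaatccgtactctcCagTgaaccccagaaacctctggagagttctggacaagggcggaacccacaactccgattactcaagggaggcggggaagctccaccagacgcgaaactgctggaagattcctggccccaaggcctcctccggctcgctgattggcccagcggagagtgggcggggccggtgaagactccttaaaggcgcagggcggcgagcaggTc
Hspa1b: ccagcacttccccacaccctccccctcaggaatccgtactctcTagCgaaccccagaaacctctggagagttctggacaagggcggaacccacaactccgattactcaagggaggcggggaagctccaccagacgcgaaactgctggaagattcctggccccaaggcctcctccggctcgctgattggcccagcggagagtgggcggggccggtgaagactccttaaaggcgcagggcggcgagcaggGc
The stretches differed at 3 of 250 bases and were 98.8% identical. No annotated exon lies in these bases. The likeness of the transcripts is what bears on how reads were assigned. The coding sequences differed at 8 of 1926 aligned bases (99.6% identical), while the 3′ untranslated parts were 59.9% identical over 614 aligned bases. Of all 50-base windows of the Hspa1a transcript, 58.8% also occur in the Hspa1b transcript. How the authors' counting treated such shared reads is not given in the sources used here, so the split between the 2 rows is uncertain and their sum is given as well.

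RefSeq promoter windows, from 250 bases before to 50 after a transcript start, were at hand for 7 of the 10 genes. They were searched on both strands for the heat shock element, the binding sequence of HSF1. The head-to-head pair of its units, GAANNTTC, was in the windows of 5 of the 7 genes and in 7.86% of all 32851 windows. The tail-to-tail pair, TTCNNGAA, was in the windows of 2 of the 7, Hsph1 and Hspe1, and in 8.52% of all windows. The 3-unit form, GAANNTTCNNGAA, which contains both pairs, was in the windows of Hsph1 and Hspe1 and in 0.603% of all windows. Dnaja1, Dnajb1 and Hsph1 have several windows each, so counts of genes and shares of windows are unlike measures. Hspa5 alone among the 7 held the ER stress response element, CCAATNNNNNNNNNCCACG, found in 0.119% of all windows. A match is a description of these letters and not a measured binding site. Stretches of 30 bases are shown with the match in capitals, as examples of each motif found; Hspa1b has the same 30 bases as Hspa1a.
Hspa1a, chr17:34972242-34972271, minus strand: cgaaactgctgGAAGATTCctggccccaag
Dnaja1, chr4:40722333-40722362, plus strand: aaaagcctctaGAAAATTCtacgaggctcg
Hsph1, chr5:149636280-149636309, minus strand: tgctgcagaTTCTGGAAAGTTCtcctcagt
Hspe1, chr1:55088055-55088084, plus strand: tccgttctaGAACCTTCCGGAAggccccgc
Hspa5, chr2:34772019-34772048, plus strand: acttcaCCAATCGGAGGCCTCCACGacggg
Dnajb1 had none of these motifs in its windows.

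All 10 chaperone genes were higher in testis macrophages than in epididymis macrophages (2.49% of tested genes were), by 1.93-fold for Hspe1 up to 3.53-fold for Hspa1a. Against brain, 8 of the 10 were higher in testis (6.82% of tested genes). Between epididymis and brain, 1 of the 10 passed the test, Hsph1, which was higher in epididymis (2.99% of tested genes). Together the 10 genes took 5.34%, 5.31% and 4.75% of reads in the testis libraries. They took 2.18%, 2.34% and 2.48% in the epididymis libraries and 2.07%, 2.87% and 3.27% in the brain libraries.

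**Figure D1:**
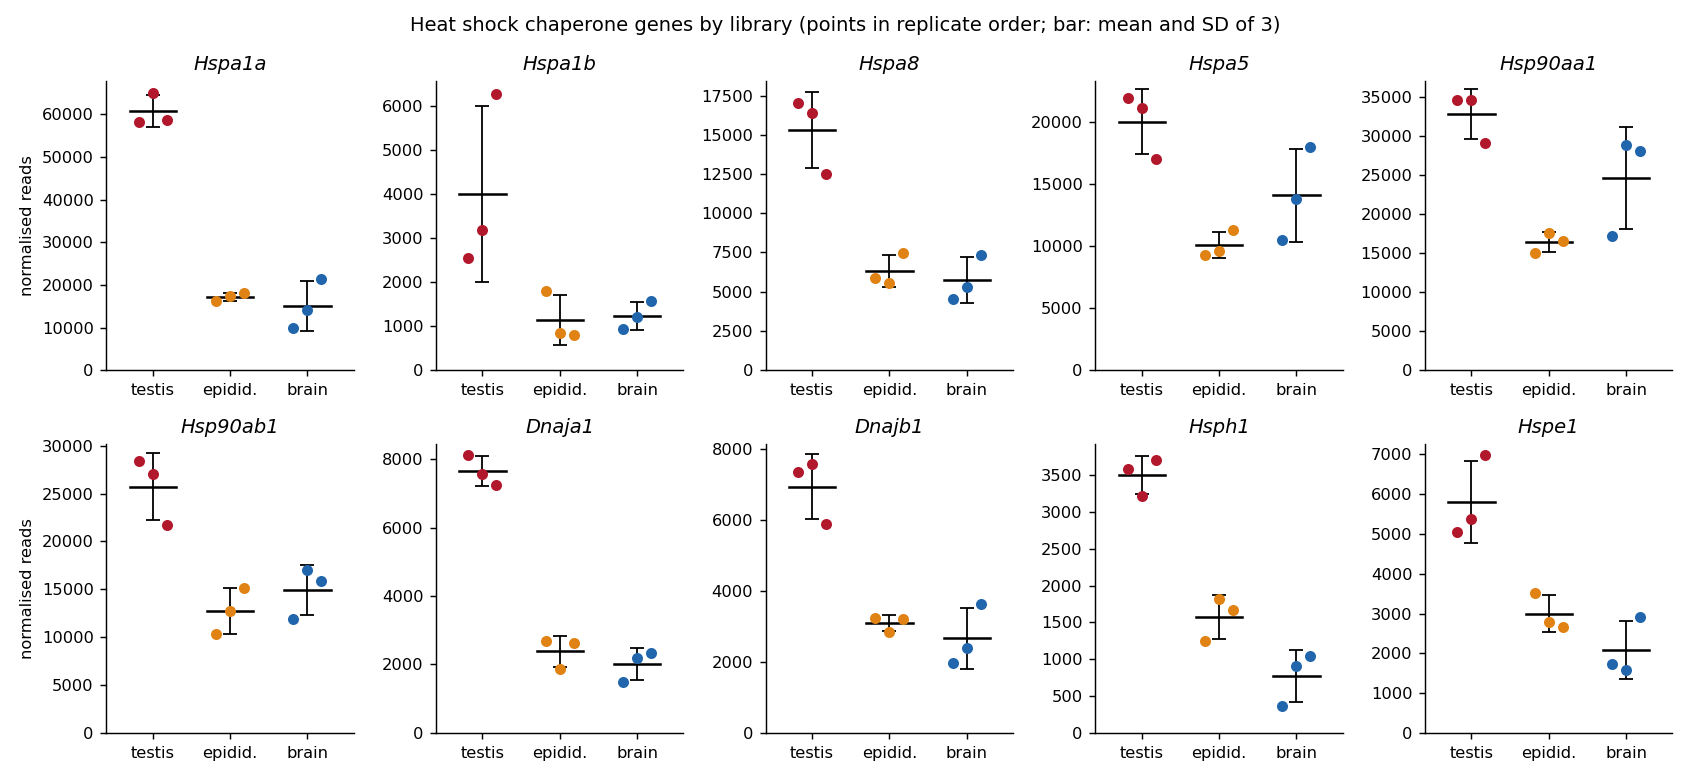
Normalised read counts (y axes linear from 0, scaled per gene) of the 10 chaperone genes in each library of testis, epididymis and brain. Points are libraries in replicate order and bars are the mean and SD of 3; every testis point lies above every epididymis point in each panel, for Hspa1a between 58334 and 65051 against 16136 to 18056.

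Hspa1a was the most abundant of the 10 in testis. It stood at 58334, 65051 and 58786 in the testis libraries, at 16136, 17375 and 18056 in the epididymis libraries and at 9865, 14136 and 21361 in the brain libraries. The lowest testis library lay above the highest of the other organs, while epididymis and brain overlapped. By rank it was the 2nd gene of the table in all 3 testis libraries, behind Malat1. Testis exceeded epididymis by a log2 fold of 1.82 (SE 0.23, limma adjusted p = 0.000347), and exceeded brain by 2.08 (SE 0.23, limma adjusted p = 1.62e-05). The difference of epididymis from brain, 0.26 on the log2 scale (SE 0.23), did not pass (limma adjusted p = 0.66).

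Hspa1b followed at a far lower level. Its values were 2552, 3192 and 6286 in testis, 1805, 838 and 809.7 in epididymis and 927, 1218 and 1566 in brain. Testis replicate 3 was the highest of the 9 libraries and epididymis replicate 1 stood apart from the other epididymis libraries, but no testis library overlapped another organ. Testis minus epididymis was 1.79 on the log2 scale (SE 0.35, limma adjusted p = 0.00769), and testis minus brain was 1.62 (SE 0.35, limma adjusted p = 0.00615).

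The sum of both rows came to 60886, 68243 and 65072 in testis, 17942, 18213 and 18866 in epididymis, and 10792, 15354 and 22927 in brain. Hspa1b supplied 4.19%, 4.68% and 9.66% of the pair's reads in testis, 10.1%, 4.60% and 4.29% in epididymis, and 8.59%, 7.94% and 6.83% in brain. Wilson 95% intervals were narrow, from 9.45% to 9.87% in testis replicate 3 and from 4.03% to 4.36% in testis replicate 1, and cover counting error only. The share thus varied within an organ by more than counting error, and the organs overlapped in it.

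Hspa8, the constitutive cytosolic HSP70 that folds proteins in unstressed cells, stood at 17006, 16417 and 12529 in testis. It stood at 5878, 5587 and 7475 in epididymis and at 4539, 5300 and 7372 in brain. Every testis library was above every library of the other organs. Testis exceeded epididymis by 1.28 on the log2 scale (SE 0.21, limma adjusted p = 0.002) and brain by 1.43 (SE 0.21, limma adjusted p = 0.000233).

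Hspa5 encodes BiP, the HSP70 of the endoplasmic reticulum and a target of the unfolded protein response. Its values were 21870, 21063 and 17017 in testis, 9278, 9625 and 11247 in epididymis, and 10506, 13772 and 17949 in brain. Testis lay above epididymis throughout, but brain replicate 3 lay above testis replicate 3. Testis minus epididymis was 0.99 on the log2 scale (SE 0.20, limma adjusted p = 0.0106). That call held in 6 of 9 fits that left out a library and was lost after quantile normalization (limma adjusted p = 0.383). Testis minus brain was 0.53 (SE 0.20) and did not pass (limma adjusted p = 0.113).

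The cytosolic HSP90 genes, inducible Hsp90aa1 and constitutive Hsp90ab1, fold kinases, receptors and other signalling proteins. Hsp90aa1 stood at 34724, 34654 and 29103 in testis, 15043, 17651 and 16602 in epididymis, and 17175, 28843 and 28112 in brain. Testis minus epididymis was 1.00 on the log2 scale (SE 0.20, limma adjusted p = 0.0107). That call held in 6 of 9 fits that left out a library and was lost after quantile normalization (limma adjusted p = 0.22). Against brain the testis libraries were also all higher, yet the log2 difference of 0.44 (SE 0.20) did not pass (limma adjusted p = 0.202). Hsp90ab1 stood at 28389, 27079 and 21745 in testis, 10297, 12766 and 15102 in epididymis, and 11924, 16980 and 15876 in brain. It was higher in testis than in epididymis by 1.02 on the log2 scale (SE 0.20, limma adjusted p = 0.00749) and than in brain by 0.79 (SE 0.20, limma adjusted p = 0.0159). The call of Hsp90ab1 against brain held in 6 of 9 fits that left out a library. After quantile normalization it was lost (limma adjusted p = 0.776).

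The J-domain proteins deliver clients to HSP70 and start its ATP hydrolysis. Dnaja1 had 8121, 7575 and 7251 in testis, 2685, 1872 and 2619 in epididymis, and 1475, 2199 and 2350 in brain. Its exons overlap those of Smu1 on the opposite strand over 608 bases, and the kit does not mark the strand. Dnajb1, a classical heat-inducible member, had 7356, 7566 and 5898 in testis, 3232, 2832 and 3205 in epididymis, and 1984, 2391 and 3628 in brain. For both genes the testis libraries lay above all others and the other organs overlapped. Dnaja1 was higher in testis than in epididymis by 1.69 on the log2 scale (SE 0.21, limma adjusted p = 0.000347) and than in brain by 1.96 (SE 0.21, limma adjusted p = 1.43e-05). Dnajb1 was higher than in epididymis by 1.16 (SE 0.21, limma adjusted p = 0.0053) and than in brain by 1.42 (SE 0.21, limma adjusted p = 0.000352).

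Hsph1, an HSP110 protein that exchanges nucleotide on HSP70, was the gene with a step between each pair of organs. It stood at 3589, 3214 and 3703 in testis, 1244, 1812 and 1666 in epididymis, and 366, 914 and 1038 in brain. No library of one organ overlapped another organ. Testis minus epididymis was 1.17 on the log2 scale (SE 0.31, limma adjusted p = 0.0472), testis minus brain 2.31 (SE 0.31, limma adjusted p = 0.000133) and epididymis minus brain 1.14 (SE 0.31, limma adjusted p = 0.0493). Both values near the threshold were fragile. The call between testis and epididymis held in 2 of 9 fits that left out a library, and the adjusted p reached 0.152 when epididymis replicate 1 was dropped. The call between epididymis and brain held in 1 of 9, and the adjusted p reached 0.174 when brain replicate 1 was dropped.

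Hspe1 encodes the mitochondrial co-chaperonin that caps the HSP60 chamber. It stood at 5053, 5389 and 6987 in testis, 3524, 2794 and 2668 in epididymis, and 1732, 1586 and 2914 in brain. Testis was higher than epididymis by 0.95 on the log2 scale (SE 0.23, limma adjusted p = 0.0298) and than brain by 1.52 (SE 0.23, limma adjusted p = 0.000382). The call of Hspe1 against epididymis held in 4 of 9 fits that left out a library, with limma adjusted p of up to 0.124. Hspd1, which encodes HSP60 itself and lies head to head with Hspe1 on chromosome 1, had 1912, 2155 and 2081 in testis, 1131, 1123 and 1202 in epididymis, and 794, 1041 and 1865 in brain. Its testis libraries were also all above the others, but neither difference passed, at 0.83 (SE 0.26, limma adjusted p = 0.0943) against epididymis and 0.82 (SE 0.26, limma adjusted p = 0.0536) against brain. The 2 genes overlap over 112 exonic bases, where reads cannot be assigned by strand.

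**Figure D2:**
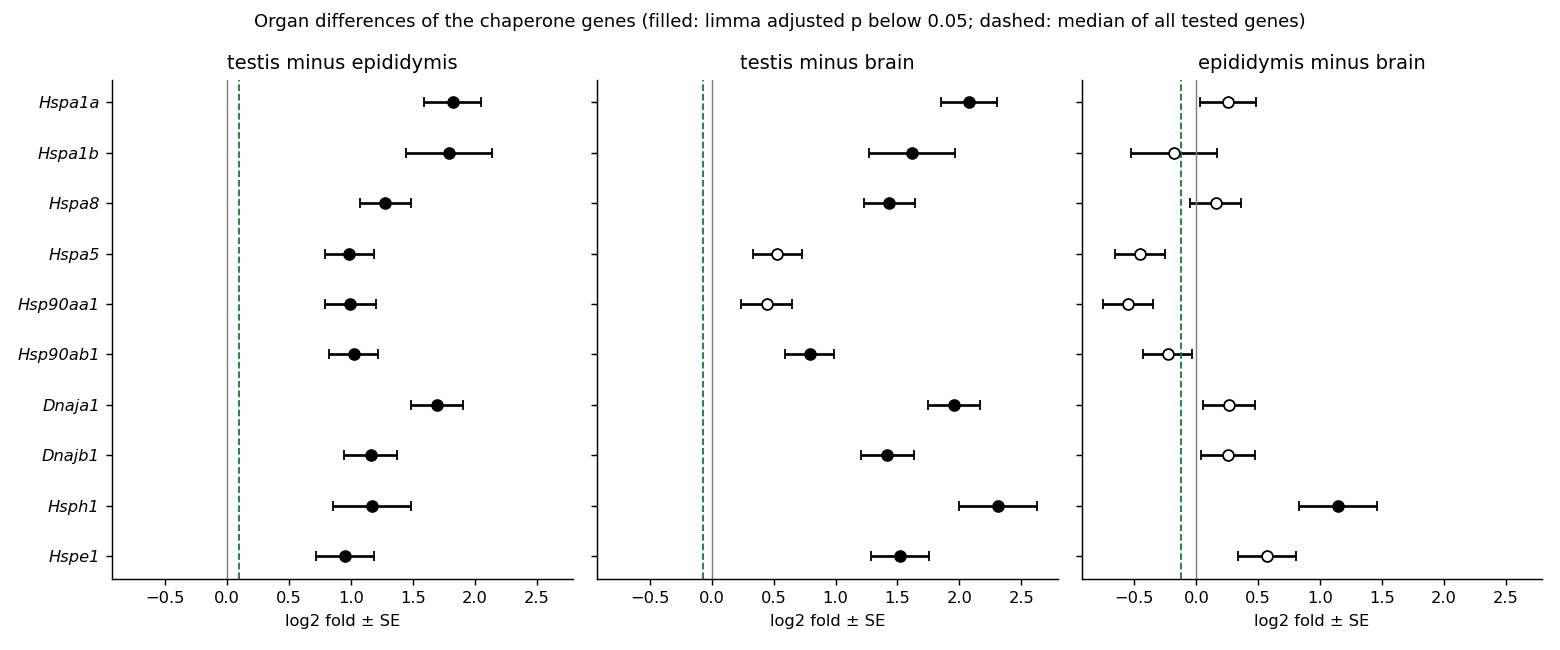
Log2 fold (x axis) of each chaperone gene with its standard error in the 3 organ comparisons, testis minus epididymis, testis minus brain and epididymis minus brain. Filled points passed limma's test and the dashed line is the median of all tested genes; 10, 8 and 1 points are filled.

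Testis minus epididymis had a median log2 fold of 1.17 over the 10 genes, against 0.10 over all 11766 genes tested. All 10 passed upward, where 2.49% of tested genes did, and 1.9% passed downward. The 3 testis libraries lay above all 3 epididymis libraries for 10 of 10, as for 11.0% of tested genes. These are abundant transcripts, and calls were more common at such levels. Of the other 210 genes with a mean over the 9 libraries at or above that of Hsph1, the lowest of the 10, 28.1% were higher in testis and 14.3% lower. The count of 10 fell to 5 without testis replicate 1 and to 6 without testis replicate 2, epididymis replicate 2 or epididymis replicate 3. It was 0 when limma did not model the variance on the mean level, with adjusted p from 0.0712 to 0.306, although all 10 then had an unadjusted p below 0.05. It was 3 after quantile normalization (Hspa1a, Hspa1b and Dnaja1), 9 by edgeR and 10 by DESeq2.

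Testis minus brain had a median log2 fold of 1.48 over the 10 genes, against -0.07 over all tested genes. The 8 genes called were all higher in testis, where 6.82% of tested genes were called in that direction and 4.83% in the other. Of the other 210 genes at these levels, 36.2% were higher in testis and 21.4% lower. Testis libraries lay above all brain libraries for 9 of the 10, as for 15.9% of tested genes, the exception being Hspa5. Without the variance trend 3 calls were left, those of Hspa1a, Dnaja1 and Hsph1.

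Epididymis minus brain had a median log2 fold of 0.21, against -0.13 over all tested genes. The single call, Hsph1, compares with 2.99% of tested genes called higher in epididymis (1.8% lower; 22.9% and 10.5% of the other 210 genes at these levels), and the libraries were fully apart for that gene alone, as for 10.5% of tested genes. For Hspa1b, Hspa5, Hsp90aa1 and Hsp90ab1 the mean was higher in brain, and none of the 4 passed. Without brain replicate 1 the call of Hsph1 was lost and Hsp90aa1 was called lower in epididymis (limma adjusted p = 0.0406). The 3 comparisons share libraries, so their values are given side by side and their likeness was not measured.

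Proportions within a library do not depend on how libraries are scaled against each other. Levels were divided for them by the exonic length of a gene, merged over all its annotated transcripts, and the organ comparison is free of that length. The size of a ratio is not. Hspa8 has 4301 merged exonic bases, while its longest protein-coding transcript has 2394, and that length would lower the ratios to Hspa8. The inducible pair exceeded Hspa8 by a ratio of per-length levels of 5.20, 6.04 and 7.57 in testis, 4.45, 4.74 and 3.67 in epididymis, and 3.46, 4.22 and 4.53 in brain. All testis ratios lay above the other 6. The ratio averaged 6.27 ± 1.20 in testis and 4.29 ± 0.55 in epididymis (SD, n = 3 each; two-sided exact permutation p = 0.1, the smallest that 3 against 3 libraries allow).

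The ratio of Hspa5 to Hspa8 was fully apart in all 3 organs. This ratio, both per length, was 1.31, 1.30 and 1.38 in testis, 1.61, 1.75 and 1.53 in epididymis, and 2.35, 2.64 and 2.48 in brain. No organ overlapped another, and each of the 3 exact permutation tests gave p = 0.1. The ratio of Dnajb1 to Dnaja1 was 2.44, 2.69 and 2.19 in testis, below all libraries of epididymis (3.24, 4.07 and 3.30) and of brain (3.62, 2.93 and 4.16). Hsp90aa1 over Hsp90ab1 came to 0.933, 0.976 and 1.02 in testis, 1.11, 1.05 and 0.839 in epididymis, and 1.10, 1.30 and 1.35 in brain. Testis and epididymis overlapped in it. These ratios were adjusted in a family of 21 exact permutation tests. The family also held the Hspa1b share, the level of Hsph1 relative to the pair and Hspa8, and the summed level of the pair, which does depend on scaling. No Benjamini-Hochberg adjusted p in it was below 0.175, the value to which the smallest possible exact p adjusts here.

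**Figure D3:**
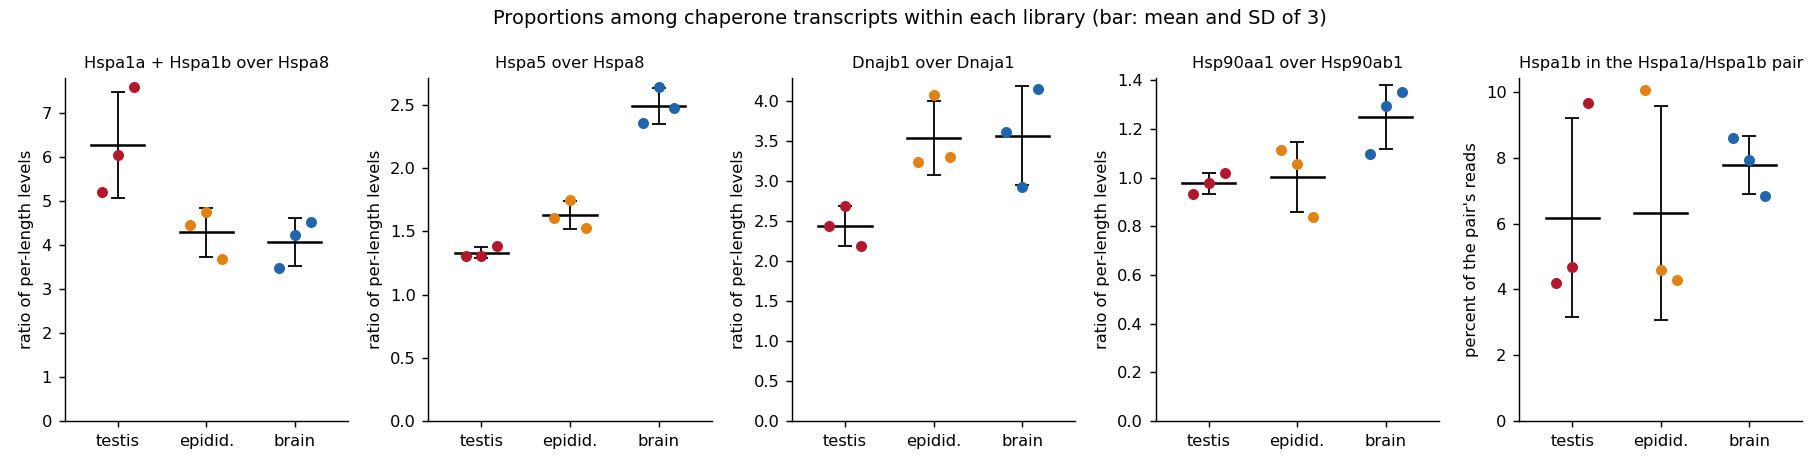
Ratios of per-length levels between chaperone transcripts, and the Hspa1b share of the reads of the Hspa1a and Hspa1b pair (percent), in each library of testis, epididymis and brain. Points are libraries and bars the mean and SD of 3; the ratio of Hspa5 to Hspa8 lies between 1.30 and 1.38 in testis, 1.53 and 1.75 in epididymis and 2.35 and 2.64 in brain.

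Per kilobase of exon, Hspa1a led the 10 genes in testis at a mean level of 20466 normalised reads, followed by Hsp90ab1 at 8582 and Hsp90aa1 at 8351. In epididymis Hspa1a led at 5793, followed by Hsp90ab1 at 4242 and Hsp90aa1 at 4180.1. In brain Hsp90aa1 led at 6286, ahead of Hspa1a at 5096 and Hsp90ab1 at 4977, which lie within the spread of the brain libraries. On these merged lengths Hsph1 was the lowest per kilobase in each organ, at 482 in testis, 217 in epididymis and 106 in brain. These levels rest on GENCODE M21 exon lengths merged over transcripts, and the annotation the authors counted on is not given in the sources used here. The order of genes can change with the length used. Hsph1 has 7266 merged exonic bases, and its longest protein-coding transcript has 3802.

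Spread between libraries differed by organ and by gene. Leaving out Hspa1b, the coefficient of variation was 5.75% to 17.8% in testis, 5.66% to 18.9% in epididymis and 17.8% to 46.3% in brain. Hspa1b varied by 49.8% in testis and 49.3% in epididymis. Brain replicate 1 was the lowest brain library for 9 of the 10 genes, and brain replicate 3 the highest for 8. Testis replicate 3 was the lowest testis library for 6 genes and the highest for Hspa1b, Hsph1 and Hspe1. Across the 9 libraries, Pearson's r of log2 values over the 45 gene pairs ran from 0.47 (Hsp90aa1 with Hspe1) to 0.99 (Hspa8 with Dnajb1), with a median of 0.86. That range describes libraries that share organ and depth and is no test.

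The wider chaperone network was counted beside the 10 genes. Of 115 further genes listed for it, 106 had a row in the table and 96 were tested. Against epididymis, 3 were higher in testis, none lower and 93 did not pass, with a median log2 fold of 0.23. Against brain, 8 were higher in testis, 3 lower and 85 did not pass, with a median of 0.06. Epididymis minus brain gave 0 higher, 3 lower and 93 that did not pass, with a median of -0.01. Over all tested genes, 2.49% were higher in testis than in epididymis, 6.82% were higher and 4.83% lower in testis than in brain, and 1.8% were lower in epididymis than in brain. At an unadjusted limma p below 0.05, 5 were lower in testis than in epididymis and 8 were higher in epididymis than in brain. For these same directions edgeR called 0 and 0, and DESeq2 0 and 2.

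Bag3, a nucleotide exchange factor of HSP70 and known HSF1 target, was higher in testis than in both other organs. It stood at 1640, 1519 and 1685 in testis, 653, 536 and 497 in epididymis, and 204, 528 and 1030.1 in brain. The log2 difference was 1.53 (SE 0.41, limma adjusted p = 0.0473, and up to 0.143 when a library was left out) against epididymis and 1.74 (SE 0.41, limma adjusted p = 0.011) against brain. It was the single call among the 8 tested genes of its list in each comparison. Of the 10 tested genes listed as other HSF1 targets, Bag3 and Ubb were higher in testis than in brain and 8 did not pass, with a list median log2 fold of 0.39. The call of Ubb held in 3 of 9 fits that left out a library.

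None of the 7 tested HSP70 relatives, 20 other J-domain proteins, 13 HSP90 relatives and co-chaperones or 10 mitochondrial chaperones and proteases passed between testis and epididymis in limma. Of these 48 different genes, 5 were higher and 3 lower at an unadjusted p below 0.05, edgeR called 0 and DESeq2 called 1. Among the 13 tested genes of the cytosolic chaperonin TRiC and its helper prefoldin, Pfdn2 was higher in testis than in epididymis, and Pfdn5, Cct2, Pfdn1 and Tcp1 were higher than in brain. The calls of Pfdn2, Cct2 and Pfdn1 held in 3 of 9 fits that left out a library and that of Tcp1 in 5, with adjusted p of up to 0.168, and all 4 were lost without the variance trend. The call of Pfdn5 held in 9 of 9 and without the trend. Pfdn5 averaged 965 ± 190 in testis and 306 ± 38.3 in brain (SD, n = 3 each; limma adjusted p = 0.000828). Hspa4l, an HSP110 relative, and the J-domain gene Dnajc9 also passed against brain, with limma adjusted p of 0.0453 and 0.0356. These calls held in 2 and 3 of 9 fits that left out a library, and the adjusted p was 0.105 for Hspa4l and 0.158 for Dnajc9 without the variance trend. Hsf1 itself was barely detected, at 12.4, 3.23 and 2.56 in testis, 0 in all epididymis libraries and 31.0, 1.11 and 0 in brain, and was not tested.

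Of 22 tested genes listed for the unfolded protein response of the endoplasmic reticulum, Hsp90b1, Calr and Pdia4 were lower in testis than in brain and 19 did not pass, where 4.83% of all tested genes were lower. Without the variance trend none of the 3 was called, and with a library left out the call of Pdia4 held in 5 of 9 fits. Hsp90b1, the ER form of HSP90, stood at 1623, 1774 and 2081 in testis, 2234, 2478 and 2261 in epididymis, and 3692, 3329.7 and 3469.9 in brain. Testis minus brain was -0.94 on the log2 scale (SE 0.17, limma adjusted p = 0.00198), with no overlap. Calr, a calcium-binding lectin chaperone, averaged 1917 ± 117 in testis and 3987 ± 283 in brain (SD, n = 3 each; limma adjusted p = 0.000885). Between testis and epididymis none of the 22 passed in limma, edgeR or DESeq2, and 3 were lower in testis at an unadjusted limma p below 0.05. Calr and Pdia4 were also lower in epididymis than in brain and 20 did not pass, where 1.8% of all tested genes were lower. The log2 differences were -0.66 (SE 0.18, limma adjusted p = 0.0435) and -1.23 (SE 0.28, limma adjusted p = 0.0161). These calls held in 0 and 6 of 9 fits that left out a library, and neither held without the variance trend. Hspb1, a small heat shock protein that holds unfolded clients without ATP, averaged 334 ± 88.6 in epididymis and 958 ± 285 in brain (SD, n = 3 each; limma adjusted p = 0.00841), and 563 ± 108 in testis, which did not pass against either organ.

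**Figure D4:**
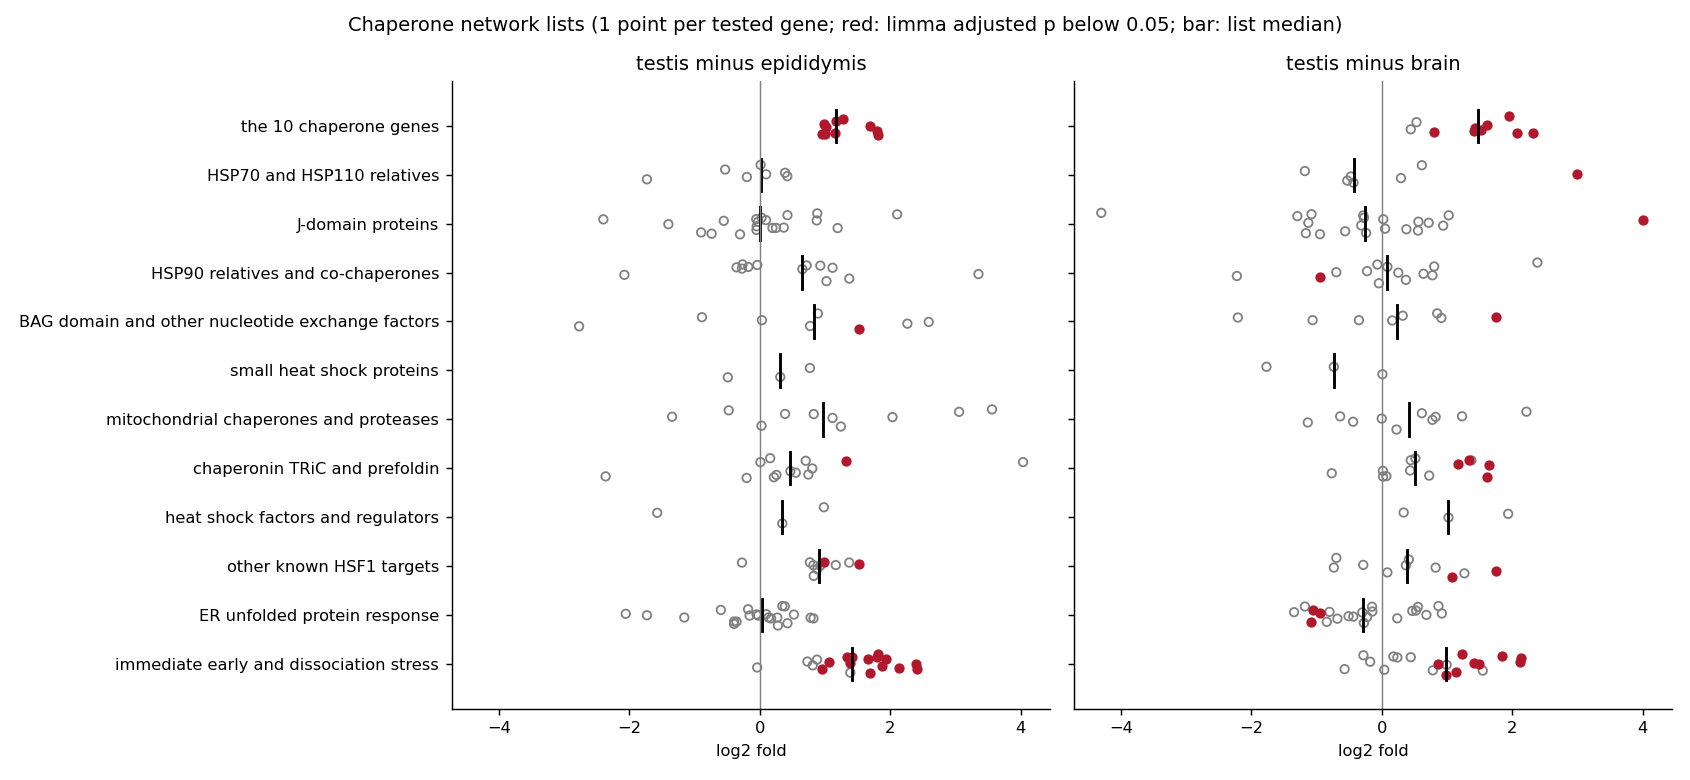
Log2 fold of every tested gene (1 point each) of the 10 chaperone genes and of 11 further lists, for testis minus epididymis on the left and testis minus brain on the right. Red points passed limma's test and bars are list medians, which for testis minus epididymis are 1.17 for the chaperone genes, 0.00 for other J-domain proteins and 1.42 for immediate early genes.

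Immediate early genes encode fast-induced regulators and are known to respond to tissue dissociation. Of 19 tested genes listed as immediate early or dissociation stress genes, 14 were higher in testis than in epididymis, 0 were lower (0 also at an unadjusted limma p below 0.05, by edgeR and by DESeq2) and 5 did not pass, with a median log2 fold of 1.42. The share of genes higher in testis was 2.49% over all tested genes and 28.1% over the 210 at the level of the chaperones. Those 210 hold some genes of this list, such as Jun and Nfkbia, while others, such as Fos and Junb, had lower means. Against brain 9 were higher in testis and 10 did not pass, with a median of 0.98, where 6.82% of all tested genes and 36.2% of the 210 were higher. Without the variance trend each of these counts, 14 and 9, was 1. Epididymis minus brain gave 1 higher, 5 lower and 13 that did not pass, with a median of -0.71. Of all tested genes 2.99% were higher and 1.8% lower in that comparison, and of the 210 genes 22.9% and 10.5%. Their summed share was 333 to 364 of every 10000 reads in testis, 141 to 151 in epididymis and 245 to 335 in brain, lowest in brain replicate 1. Egr1, a transcription factor induced within minutes, stood at 4930, 4596 and 7933 in testis, 1989, 1698 and 1252 in epididymis, and 6212, 9462 and 10027 in brain. Epididymis minus brain was -2.37 on the log2 scale (SE 0.25, limma adjusted p = 3.3e-05), where 9 of the 10 chaperone genes did not pass. The part of tissue digestion in these levels was not tested.

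Transcripts of some other cell types were also higher in the testis libraries, and those of others were not. The 7 Leydig cell genes in the table, of 8 listed, took 3.97 to 10.5 of every 10000 reads in testis, 0.091 to 0.643 in epididymis and 0.249 to 0.336 in brain. Cyp17a1, Hsd3b1 and Hsd3b6 had no read in epididymis or brain, and Insl3 and Hsd17b3 had none in epididymis and few in brain. Star and Cyp11a1 had reads in all 3 organs. Star stood at 198, 369 and 439 in testis, 33.6, 72.2 and 0 in epididymis, and 69.2, 73.6 and 82.7 in brain. Cyp11a1 stood at 128.5 in epididymis replicate 2, above testis replicates 1 and 2 at 80.8 and 47.7. The 10 germ cell genes, of 12 listed, took 2.41 to 5.58 in testis, 1.49 to 2.63 in epididymis and 0.0171 to 0.168 in brain. Of these, Tnp2 and Sycp3 had a higher mean in epididymis than in testis, and the rest a higher mean in testis. Hspa2 and Hspa1l, HSP70 genes known from male germ cells, were near 0 in all organs. Hspa2 stood at 0, 19.4 and 29.9 in testis, 18.2, 1.88 and 16.2 in epididymis, and 0, 24.5 and 12.4 in brain, and Hspa1l had reads in 1 testis and 1 epididymis library. The 8 T and NK cell genes, of 11 listed, took 2.46 to 3.46 in testis, 0.325 to 0.700 in epididymis and 0.280 to 0.510 in brain. Cd4 alone of these had its lowest mean in testis, 4.31 against 34.4 in epididymis and 13.9 in brain. The 8 epididymal epithelium genes, of 9 listed, took at most 0.112 in testis, 1.52 to 1.74 in epididymis and at most 0.028 in brain. The 6 neutrophil genes, of 8 listed, took 0.424 to 0.730 in testis, 0.610 to 1.28 in epididymis and 1.47 to 2.57 in brain. Of these genes, S100a8, S100a9, Retnlg and Ly6g had no read in testis, and Csf3r was lower in testis than in brain. Cxcr2 went the other way, at 256, 144 and 209 in testis and 99.3, 72.5 and 109 in brain. The 7 fibroblast and smooth muscle genes took 0.653 to 0.881 in testis, 0.152 to 0.517 in epididymis and 0.054 to 0.220 in brain. The 4 Sertoli cell genes, of 8 listed, took 0.0863 to 0.278 in testis, 0.454 to 0.458 in epididymis and 0.177 to 0.341 in brain. Mean shares of the B cell list were 0.217 in testis, 0.281 in epididymis and 0.0897 in brain. For endothelium these were 0.624, 0.620 and 1.22, and for neurons and glia 1.08, 0.526 and 1.31. Testis replicate 3 was the highest testis library for the Leydig and germ cell lists. Any part of these cells in the chaperone levels was not tested.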

How the data were processed

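The signal values of the deposited table are reads per gene that the authors divided by a factor per library. Per the submitters' processing notes, CASAVA 1.8, Bowtie2 2.2.1, Partek 6.6, DESeq2 and the mm10 genome were used; the sources used here give neither their roles nor the annotation or counting rule. All values (100%) were whole multiples of 1 read within 1e-06 reads, so reads were recovered by division. Per the labels' protocols, libraries came from 10 ng of RNA with an unstranded TruSeq v2 kit.

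Values were analysed as log2(value + 1), so folds of low genes are understated. The test covered 11766 genes that reached 10 in 3 or more libraries, all 10 chaperone genes among them. In R 4.3.3, limma 3.58.1 fitted organ means to all 9 libraries with a variance trend, and p-values were adjusted by Benjamini-Hochberg over all tested genes and called below 0.05. edgeR 4.0.16 and DESeq2 1.42.0 on the recovered reads were alternatives, beside other pseudocounts, filters, scalings and fits without each library. The procedure was tested on simulated data.

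The chaperone genes and gene lists were chosen with earlier results of these data known. Genes of the wider network were named where called; 1 gene is not reported here. Replicates are numbered in sample order. Sequences are RefSeq's on GRCm38.p6. Matches of at least 90% identity over 300 bases to other genes exist for Hspa8 (13), Dnaja1 (5), Hsp90aa1 (4), Hspe1 (4) and Hsp90ab1 (2). Such genes can share reads with them. The matches of Dnaja1 include Smu1, the overlapping gene on the opposite strand. Hspa1a and Hspa1b match each other and Gm20481, which overlaps Hspa1a over 564 exonic bases on the opposite strand and has no row in the deposited values.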

Additional observations from a re-analysis of the deposited data

How the results depend on the processing

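No paired analysis was possible because the labels link no libraries across organs. Between testis and epididymis, 10 genes were called, against 0 without the variance trend, 3 after quantile normalization and 5 to 10 when a library was left out; the cause was not tested. Between testis and brain, 8 were called, against 3 without the variance trend and 7 to 9 when a library was left out. Between epididymis and brain, 1 was called. That count was 0 with a pseudocount of 0.5, without the variance trend, with 2 organs in the fit, with TMM factors, at the same total per library or by edgeR, 2 after quantile normalization or by DESeq2, and 0 to 2 when a library was left out. Log2 folds changed sign in 5 cases, none of them called. After quantile normalization, testis minus brain was -0.13 for Hspa5 and -0.22 for Hsp90aa1. With a library left out, epididymis minus brain ran from -0.017 (without brain replicate 1) to 0.54 for Hspa1a. For Hspa1b it ran from -0.55 to 0.024 (without epididymis replicate 3), and was 0.01 without brain replicate 3. All other folds of the 10 genes kept their sign in the alternatives run. Over all tested genes, 516 were called between testis and epididymis, against 192 without the variance trend, 250 with 2 organs in the fit, 788 by DESeq2 and 278 to 442 when a library was left out. Between testis and brain the count was 1371, against 837 without the trend and 827 to 1457 with a library left out. Between epididymis and brain it was 564, against 306 without the trend, 910 by DESeq2 and 320 to 597 with a library left out. Rescaling to the same total moved the median of all genes to -0.29 for testis minus brain and -0.05 for testis minus epididymis.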

Other observations

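Genes outside the 10 whose pattern over the 9 libraries was most like that of Hspa1a were Ifrd1, Actb, H3f3a, Alcam and Rrm2b, with Pearson's r of log2 values of 0.99, 0.99, 0.99, 0.98 and 0.97. Ifrd1, a transcriptional co-regulator, stood at 6134, 6277 and 6717 in testis, 2017, 2006 and 2299 in epididymis, and 1043, 1648 and 1906 in brain. Alcam, an adhesion receptor, stood at 215, 194 and 240 in testis, 0.909, 1.88 and 3.23 in epididymis, and 0, 1.11 and 1.78 in brain.

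Genes with a pattern close to that of Hspa5 included Ppm1f, Atf3, Junb and Cdc123, with r of 0.96, 0.95, 0.95 and 0.95. Atf3, a stress-induced transcription factor, stood at 5182, 5665 and 5223 in testis, 2021, 2138 and 2000 in epididymis, and 1753, 3733 and 4615 in brain. Both Hspa5 and Atf3 were lowest in brain replicate 1 among brain libraries and highest in brain replicate 3. These r describe 9 libraries that share organ and depth, and are no test.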
